A study of Danio rerio with 20 samples.

Results

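The genes described here are those of the long arm of zebrafish chromosome 4 that differed between old and young WT brains. They were taken by position alone from the authors' deposited table of called genes, as every gene on chromosome 4 that starts at 28 Mb or beyond on the GRCz11 assembly and lies more than 2 Mb from the chromosome end. The rule found 23 genes among the 2885 distinct genes of the table. They were set against the 73 called genes of the same chromosome that start below 28 Mb. Another 10 called genes lie in the last 2 Mb and belong to neither set, which brings the called genes of chromosome 4 to 106.

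In the study, male fish of the AB background gave whole brains for sequencing of poly(A) RNA, as 20 libraries of 7 groups that differ in age and in genotype, WT or tert-/- (siblings without telomerase). The comparison used here is WT at over 30 months against WT at 2 months, both without a transgene or treatment, and no tert-/- fish enter it. Each library is a separate animal by the design text, the labels used here hold 3 libraries of the old and 2 of the young group, and the sources do not name the libraries that entered the fit. Values of single libraries were not analysed here, because the table gives each gene only a mean normalized count over the fitted libraries, the log2 fold change (old over young), its standard error (SE), a Wald statistic and an adjusted p. No spread between fish could be computed from it, and the errors below are those that the authors deposited beside the log2 fold changes.

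The long arm of chromosome 4 is an unusual stretch of the zebrafish genome. It replicates late in S phase, is rich in repeats and heterochromatin, and carries few of the single-copy genes that zebrafish share with other vertebrates. In their place it holds large families of near-identical genes, among them NLR immune receptors and C2H2 zinc finger proteins, and clusters of genes for tRNA, 5S rRNA and spliceosomal RNA. In wild zebrafish the region near its end is linked to sex, an association that the domesticated AB strain does not show. Most of its protein-coding genes have only clone-based names (si:, LOC or an accession of a sequenced clone), and such names give no role.

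A gene counts as called where the adjusted p is under 0.05. From its adjusted and raw p values the table implies 21135 tested genes, of which 13.9% were called. The genes listed as higher in old fish are 6.53% and those listed as lower 7.12% of the tested genes. The table lists called genes only, so how many long arm genes were tested is unknown and no share of the arm can be set against those percentages. Calls rest on the Wald test. Fold changes are read here as shrunken estimates, which the study's methods do not state. The reading rests on their ratio to the product of SE and Wald statistic, at a median of 0.87.

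Of the 23 long arm genes, 13 were higher and 10 lower in old brains. The median log2 fold change was 1.49, within a range from -2.07 to 4.23. Higher genes had a median of 2.78 and lower genes one of -0.75. In all, 17 of the 23 (73.9%) changed by at least 1 on the log2 scale, and these include all 13 higher genes but only 4 of the 10 lower ones. Changes of that size were higher in old fish in 518 of 896 genes over the whole table, and in 208 of 330 among called genes off the arm with a mean normalized count of at most 25. Of the 6 lower genes under 1, 4 have strongly shrunken values, described below. Whether the split at 1 would hold without the shrinkage was not tested. Below the boundary, 42 of 73 genes were higher, at a median log2 fold change of 0.29, and 12 (16.4%) changed by at least 1. The median absolute log2 fold change was 2.04 on the long arm, 0.55 below the boundary and 0.65 over the whole table. The share of higher genes was 56.5% on the long arm (exact binomial 95% interval 34.5% to 76.8%), 57.5% below the boundary (45.4% to 69.0%) and 47.8% over the whole table. The intervals cover counting error over genes, which are not independent replicates. Set side by side, the median change was larger on the arm than below the boundary. The shares of higher genes lay within each other's intervals, and neither difference was tested. The median SE of the shrunken value was 0.62 on the arm and 0.16 below the boundary. Calls rest on the Wald statistic, whose own error is not given. Because only called genes are listed, sizes of change cannot be compared apart from the calling.

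**Figure D1:**
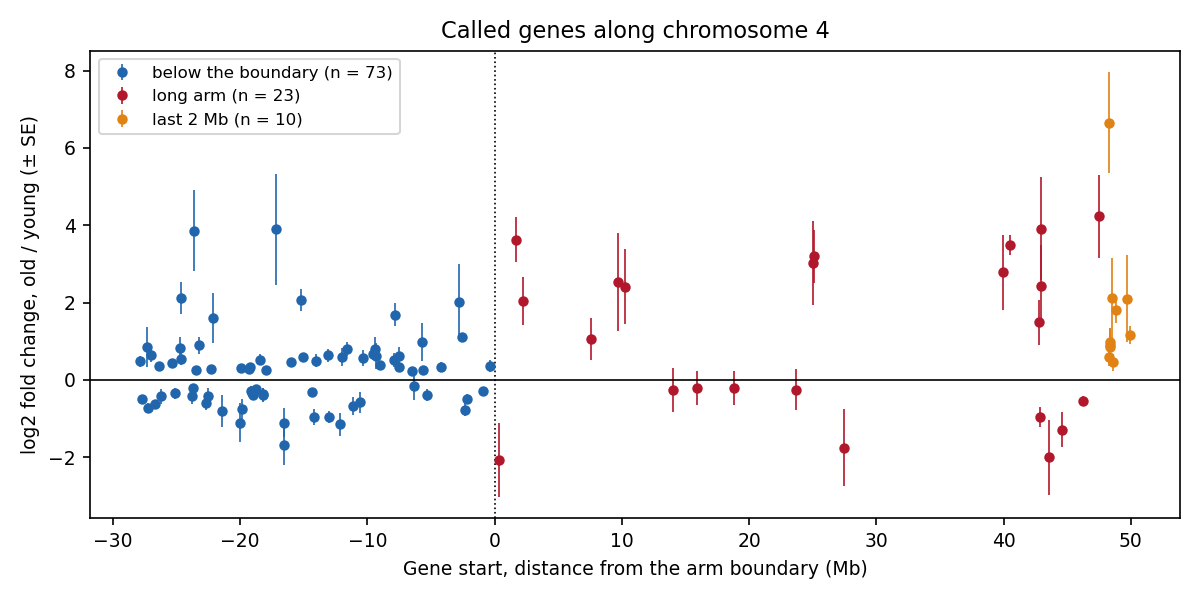
Log2 fold change of old over young WT brains (vertical axis, bars are the standard error) of the 106 called genes of chromosome 4, by the distance of the gene start from the arm boundary in Mb (horizontal axis). The 73 genes below the boundary lie densely and mostly near 0, the 23 long arm genes are sparse and lie between -2.07 and 4.23, and all 10 genes of the last 2 Mb lie above 0.

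Only 5 long arm genes have a name that is not clone-based, and 4 of these were lower in old fish. ptprb, a receptor tyrosine phosphatase of endothelial cells that in the mouse restrains the angiopoietin receptor Tie2 and acts at VE-cadherin junctions, lies at 74271067 to 74367912 of chromosome 4. It had the highest mean normalized count of the arm, 453, and fell by 0.53 on the log2 scale (SE 0.12, adjusted p = 6.65e-05), or 1.45 times. The precision is the best on the arm, with a 95% interval from -0.77 to -0.30. Of 5 endothelial markers set beside it, 2 were called and both were lower, cdh5 (VE-cadherin) at -0.71 (SE 0.14) and slc2a1a (the glucose transporter of the blood-brain barrier) at -0.47 (SE 0.19). The other 3 (kdrl, pecam1 and fli1a) are not in the table. Over all tested genes 13.9% were called, and the list of 5 is short. In whole-brain RNA, fewer cells of a type and less RNA per cell cannot be told apart, and the part of endothelial markers in the ptprb value was not tested.

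srr encodes serine racemase, which in mammals makes D-serine, a co-agonist of NMDA receptors. It lies at 28356606 to 28373257, closest to the boundary of all 23 genes. Its mean normalized count of 9.26 was low for a named gene, and it fell by 2.07 on the log2 scale (SE 0.95, adjusted p = 0.0163), or 4.20 times. The 95% interval is wide, from -3.93 to -0.21.

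The remaining named genes are C2H2 zinc finger genes, whose proteins bind DNA through repeated zinc fingers. znf1093 was higher, at 2.41 on the log2 scale (SE 0.97, adjusted p = 0.0108) and a mean normalized count of 12.4. znf569l was lower, at -1.75 (SE 1.00, adjusted p = 0.0337), at a mean normalized count of 5.95. znf1104 was lower by the Wald test (adjusted p = 0.0221) with a shrunken log2 fold change of -0.22. The zinc finger genes of the arm thus went both ways. Over the whole table, 15 genes are named znf and a number, 2 higher and 13 lower, where 1505 of all 2885 genes were lower. The table of gene names holds 315 symbols of this form, and how many were tested is unknown. The 12 called ones off the long arm comprise 11 lower genes and 1 higher one (znf831, 0.68), with a median of -0.40. That median includes strongly shrunken values, such as znf1183 at -0.35 (SE 0.99) and znf1179 at -0.15 (SE 0.34). Reads of zinc finger genes in clusters of near-identical copies can be assigned to the wrong copy, so values of single copies are uncertain. No long arm gene carries a name of the NLR family, the histones, the TRIM ubiquitin ligases, the immune GTPases of the gimap and gbp type, the olfactory, vomeronasal or taste receptors, or a small RNA. A gene with a clone-based name may still belong to such a family.

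The other 18 genes have clone-based names, 12 higher and 6 lower. LOC101882060 (ENSDARG00000100302, si:dkey-237g15.2 in the table of gene names) stands out by the strength of its call. It lies at 68475654 to 68497731, had a mean normalized count of 136, and was 11.2 times higher in old fish, at 3.48 on the log2 scale (SE 0.26, adjusted p = 2.28e-39). By absolute Wald statistic, 13.7, it ranks 7 among all 2885 called genes and 2 among the higher ones. Its 95% interval runs from 2.98 to 3.99. No role can be given from the name. RefSeq lists a gene of the symbol LOC101882060 as protein-coding, which was matched by that symbol alone. Whether LOC101882060 or the other genes with clone-based names have near-identical copies was not examined. The SE does not cover reads assigned to a wrong copy.

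The next calls by adjusted p are also of higher genes, at lower counts. si:ch211-214c20.1 rose 12.4 times, by 3.63 on the log2 scale (SE 0.59, adjusted p = 2.92e-08) and a mean normalized count of 19.3. ENSDARG00000098610 (si:dkey-8o9.2 in the table of gene names) rose 9.16 times, by 3.19 (SE 0.68, adjusted p = 1.66e-05), at a mean normalized count of 23.2. Its neighbour si:ch211-171l17.14 starts 80.6 kb before it (the line above it in the plot of the long arm genes) and was also higher, at 3.03 (SE 1.08) and a count of 9.35. The largest log2 fold change of the arm belonged to si:dkey-71l4.5, at 4.23 (SE 1.07, adjusted p = 0.000432), with a mean normalized count of 13.7 over a gene model of 199 kb. si:dkey-233e3.2 was higher by 2.04 (SE 0.62), and si:ch211-133h13.1 by 2.78 (SE 0.98) at a mean normalized count of 5.76. Among the weakest calls of higher genes, si:dkey-3p4.8 stood at 2.53 (SE 1.27) and LOC108183680 at 1.05 (SE 0.55).

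A group of 4 called genes lies within 1 gene model. si:ch211-127b6.2 spans 237 kb, from 70791887 to 71029208, and encloses si:ch211-108c17.2, CU468012.3 and LOC110439408. The enclosing gene was higher, at 1.49 (SE 0.58) and a mean normalized count of 19.5. Inside it, si:ch211-108c17.2 was lower, at -0.96 (SE 0.25, adjusted p = 0.000317), with a count of 84.4, the third-highest of the arm. CU468012.3 was higher, at 2.42 (SE 1.06) and a count of 5.26, and LOC110439408 likewise, at 3.91 (SE 1.34) and 5.14. The lower gene of this nest thus had the highest count of the 4. No gene below the boundary overlaps another called gene. The study's methods name a directional (strand-specific) library kit, whereas the sample labels name the kit without that word. The sources used here do not state whether counting used the strand. Whether exons of the nested genes overlap was not examined, nor how reads that fall on more than 1 gene were counted. The 4 values are uncertain for these reasons.

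The most shrunken values of the arm lie next to each other. Between 42.0 and 51.7 Mb, 4 consecutive called genes were lower, namely si:ch211-142b24.6, znf1104, BX927336.2 and LOC108183843. Their log2 fold changes of -0.27, -0.22, -0.21 and -0.25 are all smaller than their SE (0.57, 0.44, 0.44 and 0.53). Their Wald statistics nevertheless had sizes of 2.82, 3.05, 3.05 and 2.93, with adjusted p from 0.0221 to 0.0384. Dividing the fold change by the SE and by the Wald statistic gave ratios of 0.16 to 0.17 in these 4 genes, against a median of 0.87 over the table. Only 27 genes of the table have a ratio under 0.3, so the 4 genes count among few. Their direction comes from the test, and the size of their change is not resolved by these values. The other lower genes with a clone-based name were si:dkey-27n6.4, at -2.00 (SE 0.97), and si:cabz01054394.6, at -1.28 (SE 0.45, adjusted p = 0.00492).

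**Figure D2:**
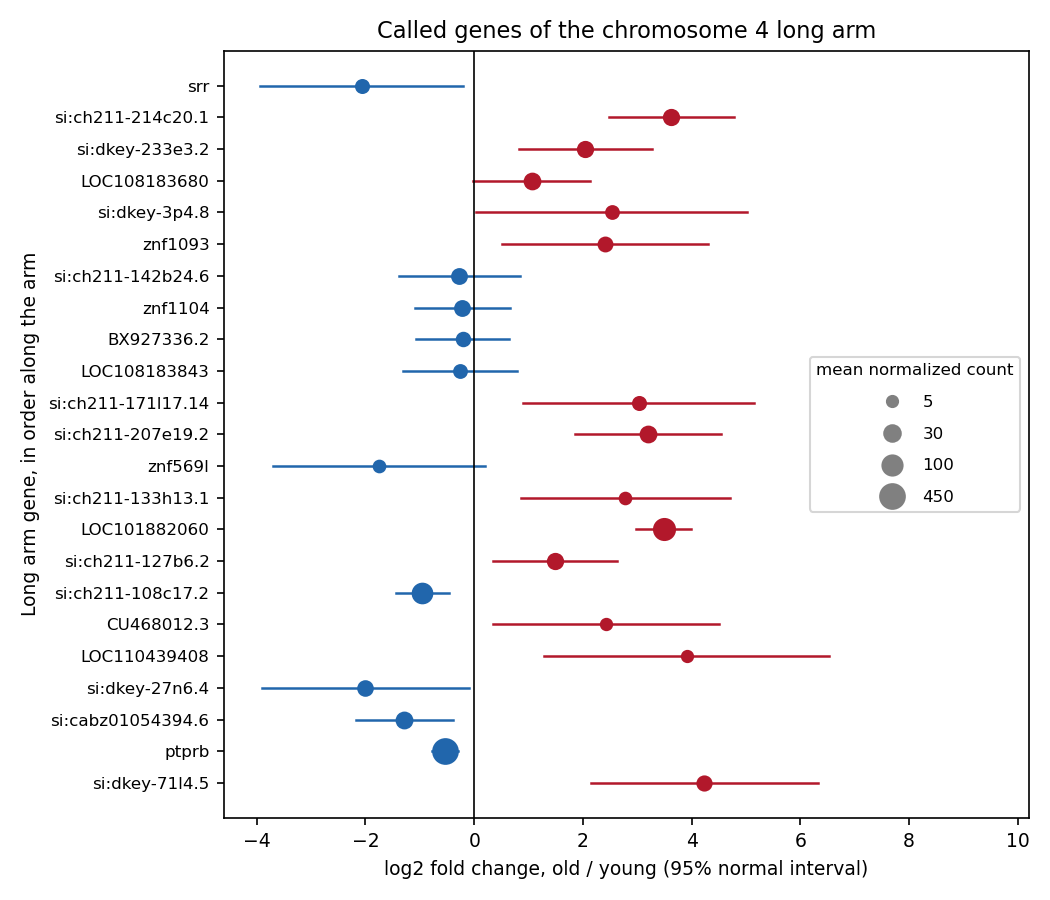
Shrunken log2 fold change of old over young WT brains (horizontal axis) of the 23 long arm genes in order along the arm (vertical axis), with 95% normal intervals from the standard error; red is higher and blue lower in old fish, and larger points have a higher mean normalized count. LOC101882060 and ptprb have the narrowest intervals among the higher and the lower genes, and the intervals of 6 genes include 0 although the Wald test called them.

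Most long arm genes had low counts. The median of their mean normalized counts was 15.7, against 268 below the boundary and 188 over the whole table. In 20 of the 23 (87.0%) the count was at most 25, and LOC101882060, si:ch211-108c17.2 and ptprb were the only ones at 50 or more. Below the boundary 7 of 73 genes (9.59%) had a count of at most 25. Counts are not divided by gene length, so they compare precision and not the amount of RNA between genes.

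Among called genes of low count, large changes were frequent on other chromosomes too, so the size of change was set beside called genes of like count. Among the 379 called genes off the long arm with a count of at most 25, the median absolute log2 fold change was 1.77 and 330 (87.1%) changed by at least 1. The 20 long arm genes at such counts had a median of 2.06, and 16 (80.0%) changed by at least 1. Over all counts, 879 of 2862 called genes off the arm (30.7%) changed by at least 1, so large changes and low counts went together there. Only called genes are listed, and the part of the calling in this link was not tested. On the arm, the 3 genes at counts of 50 or more changed by 3.48, -0.96 and -0.53, too few to show such a link. The part of low counts in the changes of the arm was not tested. Of the directions, 224 of the 379 (59.1%) and 12 of the 20 (60.0%) were higher in old fish. Among genes with clone-based names at any count, 280 of 473 (59.2%) off the arm and 12 of 18 (66.7%) on it were higher. At counts of at most 25, the numbers were 106 of 152 off the arm and 11 of 16 on it. The differences between these groups were not tested.

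**Figure D3:**
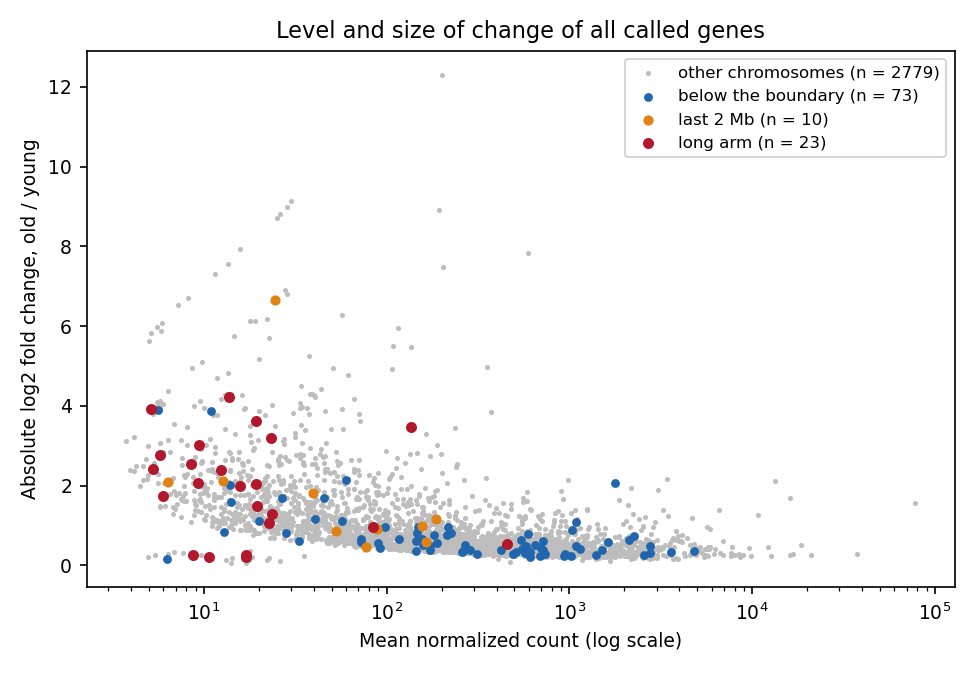
Absolute log2 fold change (vertical axis) against the mean normalized count on a log scale (horizontal axis) of all 2885 called genes, with the 23 long arm genes in red, the 73 genes below the boundary in blue, the 10 of the last 2 Mb in orange and all others in grey. Most red points sit at counts of at most 25 within the grey cloud, LOC101882060 stands at a count of 136 with a value of 3.48, and 4 red points lie at the lower edge with values under 0.3.

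Along the arm, called genes were sparse and unevenly placed. The 48.1 Mb of the arm hold 0.478 called genes per Mb, against 2.61 below the boundary and 1.53 to 3.37 on the other 24 chromosomes. Fewer annotated or tested genes and a lower share of calls cannot be told apart in this table. The median distance between the starts of neighbours was 1.36 Mb, against 0.248 Mb below the boundary. No called gene starts between 56 and 65 Mb, and the widest gap, 12.5 Mb, follows znf569l. Beyond 65 Mb lie 10 of the 23 genes. Read in order, the genes form 10 runs of a single direction, the longest being 5 higher genes from si:ch211-214c20.1 to znf1093 and the 4 lower genes named above.

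At both edges of the arm, the values on either side are given as a description. The called genes just below the boundary are fgd6, which activates the GTPase Cdc42, at -0.48 on the log2 scale (SE 0.12), zbed4, a protein with BED zinc fingers, at -0.29 (SE 0.11), and tbc1d22a, of a family of Rab regulators, at 0.35 (SE 0.15). Their mean normalized counts were 577, 313 and 144. Just above it, srr, si:ch211-214c20.1 and si:dkey-233e3.2 had counts from 9.26 to 19.3. At the distal edge, si:cabz01054394.6, ptprb and si:dkey-71l4.5 lie just outside the last 2 Mb, and the first genes inside it, BX957252.3 (6.66, SE 1.31), si:ch73-389k6.1 (0.59, SE 0.24) and zgc:171673 (0.98, SE 0.28), were all higher. All 10 called genes of the last 2 Mb were higher, with a median of 1.07, among them mhc2d4b (named as an MHC class II gene) and arfgap3, a GTPase-activating protein of the Golgi. Over the whole of chromosome 4, 65 of 106 called genes (61.3%) were higher, while the other 24 chromosomes ranged from 37.7% to 56.3%. The 65 include all 10 genes of the last 2 Mb, beside 13 of 23 on the long arm and 42 of 73 below the boundary.

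The genomic neighbours of the long arm genes were read from RefSeq, in which 11 of the 23 symbols matched, all as protein-coding genes of chromosome 4. Matching went by the deposited symbol alone. Of the 23 genes, 7 have a different symbol in the table of gene names. Among the matched ones these are si:dkey-233e3.2, LOC108183680, LOC108183843, ENSDARG00000098610 and LOC101882060. For these the RefSeq gene may be another gene or copy, so their neighbours are uncertain. RefSeq orders genes on another assembly (GRCz12tu), so only the order of neighbours was used, with 5 genes on each side. In 9 of the 11 (81.8%) at least 1 of the 10 neighbours was a tRNA gene, and 6 of the 11 had 5 or more. Below the boundary, 5 of 69 matched genes (7.25%) had at least 1 tRNA neighbour and 0 had 5 or more. Off the long arm as a whole, 156 of 2642 (5.90%) had at least 1, and 6 had 5 or more. LOC108183843 had tRNA genes in all 10 places, znf569l in 7, and LOC108183680 had 5 tRNA and 5 rRNA genes around it. Whether matched genes share neighbours was not counted, and tRNA itself was not measured, since the libraries were made from poly(A) RNA. ptprb, near the distal end, had 5 tRNA neighbours, while srr at the boundary and si:cabz01054394.6 had none. The other 12 symbols had no match and were not placed.

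**Figure D4:**
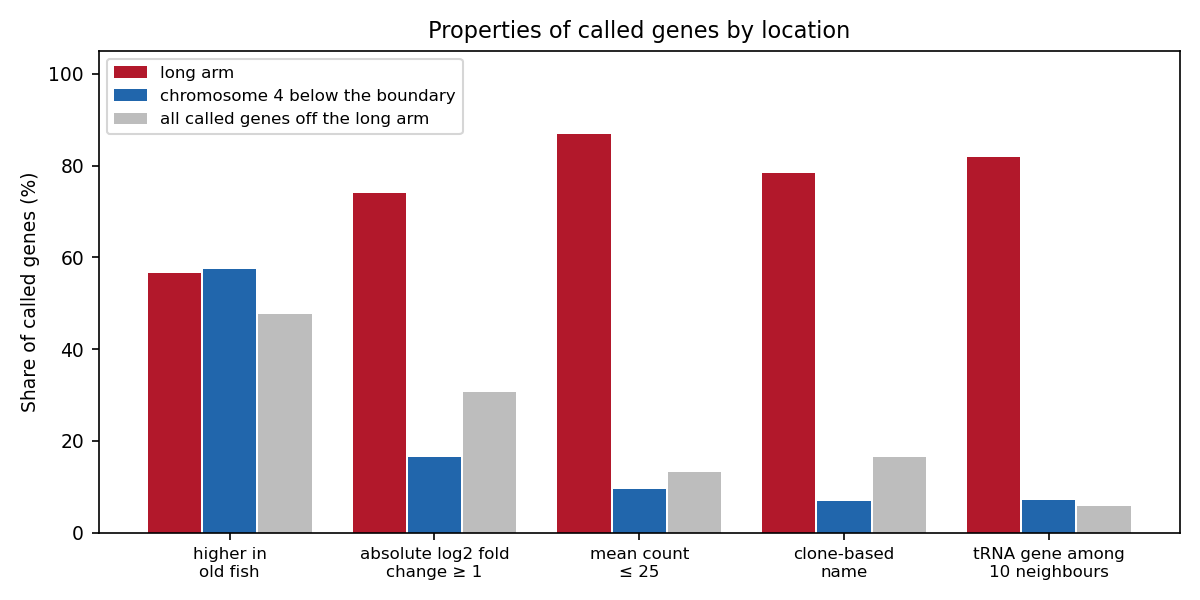
Share of called genes in percent (vertical axis) with each of 5 properties, for the long arm, for chromosome 4 below the boundary and for all called genes off the long arm; neighbours come from the RefSeq order and cover matched genes only. The shares of higher genes are 56.5%, 57.5% and 47.8%, while low counts, clone-based names, large changes and tRNA neighbours are most frequent on the long arm.

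Facts of the whole comparison touch these values in a few places. The marker lists hold few genes each, and 13.9% of all tested genes were called. Of 7 oligodendrocyte markers all 7 were called and lower, and of 7 microglia markers 3 were called, all higher. Of the 8 neuronal markers 1 was called, a share near that of all tested genes. It was snap25a, which was higher at 0.30. Of 5 radial glia markers 2 were called, both lower. Of 6 red blood cell markers 3 were called, 2 higher and 1 lower. The part of such shifts in the values of the long arm genes was not tested.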

How the data were processed

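Poly(A) RNA of whole zebrafish brains was sequenced, and 1 comparison was used, WT at over 30 months against WT at 2 months. The submitters' processing notes name cutadapt 3.0, MultiQC 1.9, STAR, HTSeq and GRCz11, while the study's methods name featureCounts and DESeq2; none of these steps was repeated. The signal that the authors deposited is a gene's mean normalized count. The log2 fold change that the authors deposited comes with its standard error and is read here as shrunken, a step the study's methods do not name. In 1 gene of the whole list its sign differs from that of the Wald statistic. Scores in the deposited table are the Wald statistic and, on GRCz11, gene positions, chromosome lengths and distances to the chromosome end. Each p-value in the deposited table is a Wald p or its Benjamini-Hochberg adjustment. These columns are the authors' own comparison, used because the table holds no other measurement; of its 3 sheets, 1 is the full list and the others are its higher and its lower genes. Library depth is not in the table, so no interval for counting error can be given beyond the standard errors.

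Genes with 2 entries were counted once. The number of tested genes follows from how far the adjustment raised the smallest p, a step tested on simulated data; it implies 2932 calls, of which 47 are not listed. Intervals are 95% normal intervals around the shrunken value, and shares have exact binomial (Clopper-Pearson) intervals. Long arm genes, families (by words in gene names) and marker lists were chosen with earlier results of these data known. The naming rule was the 10 strongest calls in each direction, the 5 of each direction with the largest change at a count of at least 50, up to 4 per direction and family, 3 genes on either side of each positional limit, and runs of 3 or more called neighbours within 100 kb; si:dkey-3p4.8 and LOC108183680 fall outside it and are given so that every gene is accounted for. Gene identifiers were joined to a table of gene names, in which 19 of 23 have an entry, and symbols to RefSeq (GRCz12tu). No group was tested against another, since called genes of an arm are not replicates. The work used scipy 1.17.1, pandas 2.3.3, numpy 2.4.6 and matplotlib 3.10.9 under Python 3.11.15.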

Additional observations from a re-analysis of the deposited data

How the results depend on the processing

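The alternatives were stricter adjusted p thresholds, a minimum change, a minimum count, boundaries at 25 and 32 Mb, no limit at the chromosome end (for the long arm only), 1 gene per run of neighbours, and names that are not clone-based; a count of at most 25 and a change of at least 1 standard error were added after the data were seen. The number of long arm genes was 23, and 10 at an adjusted p under 0.01, 6 under 0.001, 3 at counts of 50 or more and 5 with names that are not clone-based; the other 7 alternatives gave 17 to 33. The share of higher genes, 56.5%, became 33.3% at counts of at least 50 and 20.0% among names that are not clone-based, and in both cases the median log2 fold change turned to -0.53. That median was 3.34 at an adjusted p under 0.001, as was the median absolute change, which was 0.96 at counts of at least 50. These subsets hold only 3 and 5 genes, and -0.53 is the value of ptprb, the middle gene of both. They are too small to tell which genes the direction of the arm's median rests on. Below the boundary, the median absolute change of 0.55 became 0.65 at an adjusted p under 0.001, 1.68 among changes of at least 1 and 1.59 at counts of at most 25, where the share of higher genes was 71.4%. No paired analysis was possible because the table holds no value per library, and leaving out a library could not be run for the same reason. Beside the low counts of the arm, the median standard error was 0.62 there against 0.16 below the boundary.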
